A study of Bos taurus with 43 samples.

Results

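The transcripts of 7 genes of the extracellular matrix were followed in bovine biceps brachii, a muscle of the anterior limb: the collagen chains COL1A1, COL1A2 and COL3A1, and the matrix proteins FN1, SPARC, DCN and SPON1. All probes that the array's gene name, its description or the symbol behind its accession assigned to these genes were taken, which gave 9 probes of 7 genes among 21475 probes of 15574 named genes. COL1A2 and DCN had 2 probes each, the other genes 1.

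The matrix of skeletal muscle is made mainly by the fibroblasts of its connective tissue, which wraps single fibres, fibre bundles and the whole muscle. Type I collagen, a triple helix of COL1A1 and COL1A2 chains, and type III collagen, built from COL3A1 alone, form the fibrils that carry force. FN1 (fibronectin) links these fibrils to cell surface receptors, SPARC binds collagen and acts as its chaperone outside the cell, the proteoglycan DCN (decorin) sits on the fibrils and binds TGF-beta, and SPON1 (F-spondin) is a secreted adhesion protein. Glucocorticoids such as dexamethasone are known to lower collagen synthesis in several connective tissues.

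Each of 43 arrays held the muscle RNA of 1 animal, all of them male cattle. The positive animals (S21, S54, S56 and S57) were labelled as suspected of corticosteroid treatment, and the study classed them as positive by thymus histology and dexamethasone in urine. For S56 the urine value was below the study's limit of quantification. The agent's dose and duration were not given in the sources used here. The 21 unknown animals came from the same slaughterhouse sampling with no known treatment status. The study detected no dexamethasone in their urine, but treated animals may still be among them. Both sets were commercial cattle of 12 to 24 months, mostly Charolais, Limousine or their cross. The negative controls came from earlier controlled experiments: 5 cross-bred bulls of 18 months (Charolais × Limousine, control K) and 13 Holstein cattle of 13 to 18 months (control C). Values below are log2 signals after cyclic loess normalization over all arrays. A probe was called in a comparison when limma gave an adjusted p under 0.05 (Benjamini-Hochberg over 16354 tested probes) and a change of at least 2-fold.

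The groups differed in more than treatment status. The positive animals lay on 2 slides (slide 10 with S21 and S54, slide 9 with S56 and S57), each shared with 2 unknown animals: 78 and 79 on slide 10, and 50 and 81 on slide 9. The positive animals, control K and control C had no slide and no scan day in common, so that in these comparisons group and batch cannot be told apart. HOXA9, a gene whose level in muscle depends on the position along the body and which was singled out because its values were already known, stood apart as well. Its signal at probe A_73_116160 spanned 1.78 to 3.13 in the positive animals, 9.88 to 10.87 in control K and 9.49 to 10.59 in control C. In the 4 unknown animals on the shared slides it was 1.86 to 6.22, and in all 21 unknown animals 1.41 to 10.93. The part of this difference in the results was not tested. The share of spots well above background reached 74.95% (S21) to 89.4% (S57) for the positive animals, 62.9% to 73.6% in control K, 62.3% to 73.2% in control C and 40.2% (animal 79) to 97.3% (animal 50) in the unknown animals.

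Of the 9 probes, 8 passed the filter on dim signals. The second COL1A2 probe, A_73_112250, did not. Its signal spanned 1.28 to 1.60 in the positive animals, 2.27 to 2.70 in control K, 2.51 to 2.77 in control C and 1.32 to 3.53 in the unknown animals, and just 2 arrays, those of the unknown animals 50 and 79, had it well above background. It is not considered further. The other probes, except that of SPON1, were well above background on all 43 arrays.

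COL1A1, the major chain of type I collagen, had signals of 10.81 (S21), 10.64 (S54), 10.32 (S56) and 8.92 (S57) in the positive animals. In control K it had 13.11 (K7), 13.87 (K8), 11.74 (K10), 12.28 (K11) and 11.63 (K12). In control C the lowest, median and highest signals were 12.43, 13.68 and 14.46. The positive animals thus lay below every control of both sets. Against control K the log2 difference was -2.35 (standard error 0.52, limma adjusted p = 0.00341), or 5.12-fold, and against control C it was -3.27 (standard error 0.38, adjusted p = 5.55e-06), or 9.65-fold.

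COL1A2, the partner chain, followed the same order at probe A_73_110079. The positive animals had 9.68 (S21), 9.72 (S54), 9.17 (S56) and 8.82 (S57), and the controls K had 11.54 (K7), 12.76 (K8), 10.20 (K10), 11.25 (K11) and 10.50 (K12). Control C ran from 11.35 through a median of 12.44 to 12.91. No positive animal reached the lowest control. The log2 differences were -1.90 against control K (standard error 0.46, limma adjusted p = 0.00585) and -2.89 against control C (standard error 0.29, adjusted p = 1.19e-06).

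COL3A1, the chain of the finer type III fibrils, gave 10.90 (S21), 10.45 (S54), 9.80 (S56) and 8.56 (S57) in the positive animals. The controls K had 10.73 (K7), 13.48 (K8), 11.10 (K10), 12.36 (K11) and 10.82 (K12), so that S21 lay within their range and the groups overlapped. Control C, with 11.94, 13.39 and 14.24 as lowest, median and highest signals, lay wholly above the positive animals. The log2 difference was -3.28 against control C (standard error 0.41, limma adjusted p = 9.81e-06), or 9.72-fold. Against control K it was -1.77 (standard error 0.63, adjusted p = 0.0363). This call was lost without K8 (-1.32, adjusted p = 0.0597), without K11 (-1.60, adjusted p = 0.0735), without S56 (-1.73, adjusted p = 0.0779) or without S57 (-1.32, adjusted p = 0.108).

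**Figure D1:**
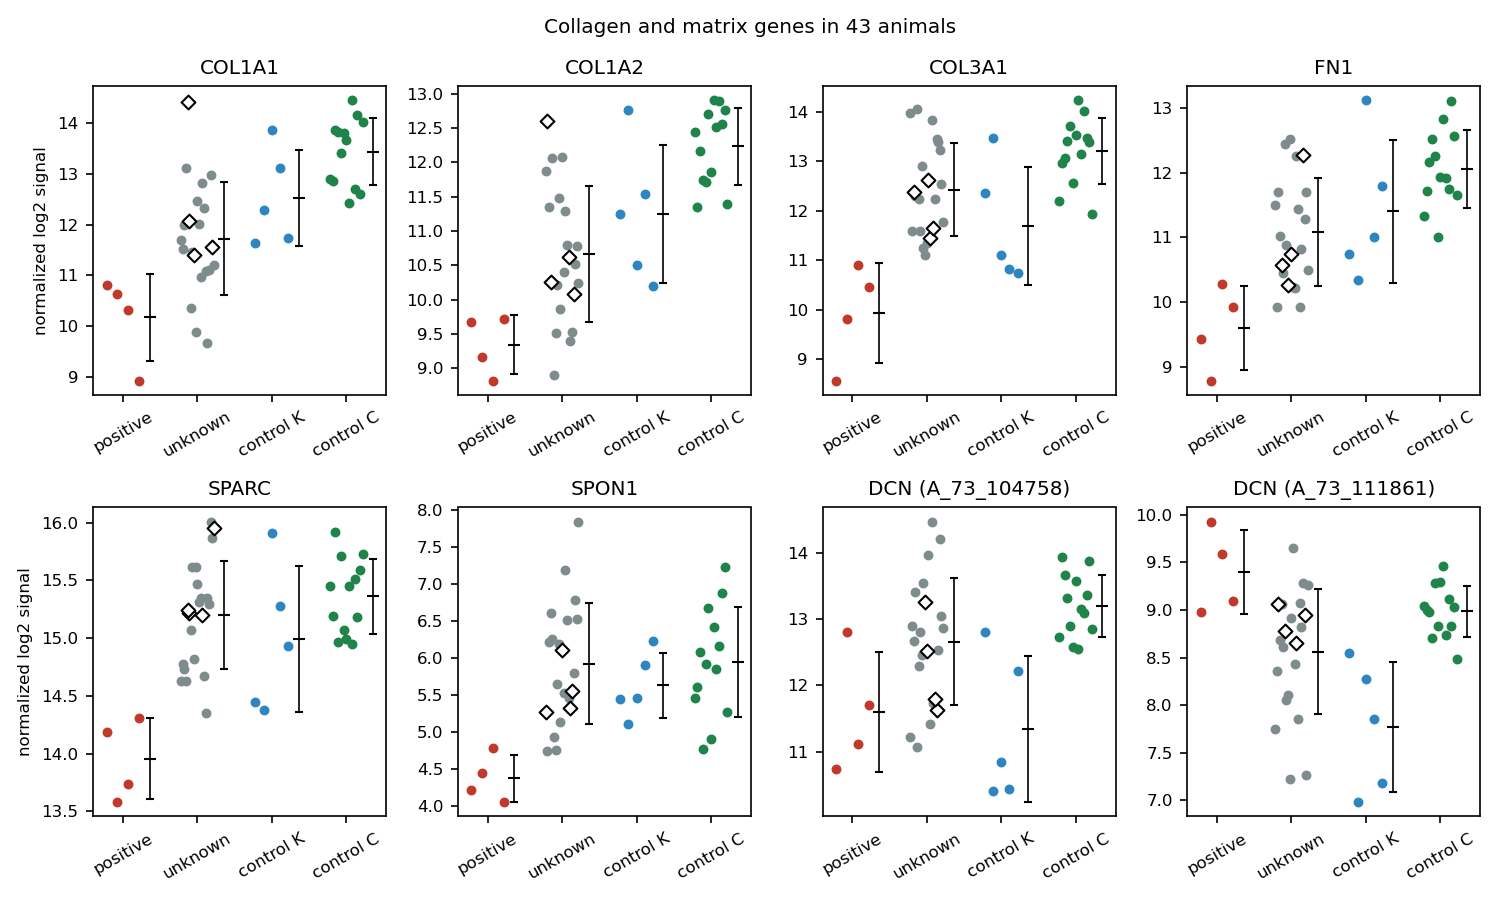
Normalized log2 signal of the 8 tested probes in each animal, by group (points), with the mean and SD of each group to the right; diamonds mark the 4 unknown animals on the slides of the positive animals. For COL1A1 the positive animals sit between 8.92 and 10.81, below all controls, while the panels of the 2 DCN probes differ from each other.

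FN1, the adhesive glycoprotein that is laid down with collagen, had 9.42 (S21), 10.28 (S54), 9.93 (S56) and 8.78 (S57) in the positive animals. In control K it had 11.01 (K7), 13.13 (K8), 10.34 (K10), 11.80 (K11) and 10.74 (K12), and in control C 11, 11.94 and 13.12 as lowest, median and highest. The gap to control K was narrow, since S54 lay only just under K10. The log2 differences were -1.80 against control K (standard error 0.53, limma adjusted p = 0.0158) and -2.46 against control C (standard error 0.33, adjusted p = 2.48e-05). Without S57, the change against control K was -1.52 (adjusted p = 0.0505).

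SPARC, the collagen-binding chaperone, had the smallest difference among the 6 probes that were called lower against both control groups. Its signals were 14.31 (S21), 13.74 (S54), 14.19 (S56) and 13.58 (S57) in the positive animals and 15.28 (K7), 15.91 (K8), 14.45 (K10), 14.93 (K11) and 14.38 (K12) in control K. Control C ran from 14.95 through 15.45 to 15.92. The positive animals again lay below every control, although S21 was close to K12. The log2 differences were -1.04 against control K (standard error 0.31, limma adjusted p = 0.0181) and -1.41 against control C (standard error 0.19, adjusted p = 2.38e-05). With control K the change was near the 2-fold limit, and leaving out S54 (-0.96), S57 (-0.91), K7 (-0.96) or K8 (-0.81) brought it under. The call also ended under 75th percentile scaling (-0.72), quantile normalization (-0.89) and normexp background correction (-0.82). It ended with the slide as a random block as well (-0.97).

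SPON1 had 4.44 (S21), 4.78 (S54), 4.22 (S56) and 4.05 (S57) in the positive animals, where 3 of 4 arrays had it well above background. The controls K had 5.10 (K7), 5.90 (K8), 5.45 (K10), 6.23 (K11) and 5.46 (K12), and control C ran from 4.77 through 5.91 to 7.23. The positive animals lay below control K without overlap, whereas S54 was level with the lowest of control C. The log2 differences were -1.25 (standard error 0.24, limma adjusted p = 0.00166) and -1.56 (standard error 0.37, adjusted p = 0.00318). At this dim signal the size of the difference depended on the processing, from -3.42 to -0.23 against control K over the alternatives tried, and it was not called against either control group under 75th percentile scaling or normexp background correction.

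The 2 probes of DCN, the decorin gene, disagreed. At A_73_104758 the positive animals had 11.71 (S21), 12.81 (S54), 11.12 (S56) and 10.74 (S57), the controls K had 10.85 (K7), 12.81 (K8), 10.40 (K10), 12.21 (K11) and 10.43 (K12), and control C ran from 12.55 through 13.15 to 13.93. The positive animals and control K covered nearly the same range, with a log2 difference of 0.25 (standard error 0.58, 95% interval -1.02 to 1.53, limma adjusted p = 0.735). Against control C the difference was -1.60 (standard error 0.32, adjusted p = 8.97e-04), with S54 above the lowest of control C.

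At the second probe, A_73_111861, the positive animals were the highest group, with 9.93 (S21), 9.59 (S54), 8.98 (S56) and 9.10 (S57). The controls K had 7.86 (K7), 8.55 (K8), 6.98 (K10), 8.28 (K11) and 7.18 (K12), all below them, and control C ran from 8.49 through 9.0 to 9.46. The log2 differences were 1.63 against control K (standard error 0.34, limma adjusted p = 0.00274) and 0.42 against control C (standard error 0.18, adjusted p = 0.0788). Under loess on every pair of arrays the first was 0.85 (limma adjusted p = 0.0924) and not called. The second turned to -0.35 under that setting (adjusted p = 0.0851). Both probes carry the same transcript accession, and the sources used here do not give their positions along it.

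Counted together, 6 of the 8 tested probes were called lower in the positive animals than in control K, beside 13.8% of all tested probes. With the slide as a random block, COL3A1 (-1.72, limma adjusted p = 0.0903), FN1 (-1.72, adjusted p = 0.0524) and SPARC (-0.97, under 2-fold) were not called, which left 3 of 8 lower. In the comparison with control K 1 probe (DCN A_73_111861) was called higher, beside 14.4%. The ranges did not overlap, with the positive animals lower, for 5 of 8 probes, beside 21.6% of all probes. Against control C, 7 of 8 probes were called lower, beside 9.4% of all probes, and 0 were called higher, beside 8.4%. These shares move with the scaling: against control C, 584 of all probes were called lower under 75th percentile scaling, 4168 under loess on every pair of arrays and 234 under normexp, beside 1538 here. In that comparison 5 of 8 were lower without overlap, beside 7.97%. The median log2 change of the 8 probes was -1.51 against control K and -2.03 against control C, and that of all tested probes was -0.03 and -0.05.

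The control groups differed from each other in part of the same genes. Of the 8 probes, 3 were called higher in control C than in control K, beside 10.9% of all tested probes, and 0 were called lower, beside 9.69%. These were COL3A1 (log2 difference 1.51, standard error 0.41, limma adjusted p = 0.00593) and both DCN probes, A_73_104758 (1.86, standard error 0.34, adjusted p = 2.67e-04) and A_73_111861 (1.22, standard error 0.21, adjusted p = 1.6e-04). COL1A1 (0.92, adjusted p = 0.0492) and COL1A2 (0.98, adjusted p = 0.0263) stayed just under 2-fold. Without K8 both were called (1.25 and 1.36), as was FN1 (1.09), and without K7 both were called as well (1.06 each). With all animals, FN1, SPARC and SPON1 had log2 differences of 0.66, 0.37 and 0.31 with adjusted p of 0.157, 0.167 and 0.467. Breed, age, experiment and batch cannot be told apart between the control sets.

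The unknown animals spread widely. COL1A1 ran from 9.66 through a median of 11.56 to 14.43 in the 21 animals, COL1A2 from 8.91 through 10.52 to 12.61, and FN1 from 9.92 through 10.89 to 12.52. Animals 38, 37 and 265 had COL1A1 signals of 9.66, 10.35 and 9.89, within the range of the positive animals, whereas animal 78 had 14.43, near the top of control C. COL3A1 ran from 11.10 through 12.30 to 14.06 and SPARC from 14.35 through 15.24 to 16.01, and for these genes no unknown animal lay at or below the highest positive animal. For COL1A1, COL1A2, FN1 and SPON1 there were 3, 4, 5 and 2 such animals of 21, and for DCN A_73_104758 there were 12.

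By group means, COL1A1 was ordered as positive (10.17 ± 0.86, SD, n = 4), unknown (11.72 ± 1.11, n = 21), control K (12.53 ± 0.95, n = 5) and control C (13.44 ± 0.67, n = 13). COL1A2 and FN1 had the same order of means, with the ranges of unknown animals and control K overlapping. For COL3A1 and SPARC the order was positive, control K, unknown and control C, with means of 9.93, 11.70, 12.42 and 13.21 for COL3A1 and of 13.96, 14.99, 15.20 and 15.36 for SPARC. The neighbouring groups other than the positive animals overlapped in range for each of these 5 genes. For DCN A_73_104758 the means were 11.34 in control K, 11.60 in the positive animals, 12.65 in the unknown animals and 13.20 in control C. For SPON1 they were 4.38, 5.63, 5.92 and 5.94 in the positive animals, control K, the unknown animals and control C, the last 3 being within 1 SD of each other. The unknown animals were not tested against the controls.

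Against all 21 unknown animals, 0 of the 8 probes were called higher and 0 lower by limma, beside 0% and 0.0489% of all tested probes (8 probes). At an unadjusted p under 0.05, 3888 of the 16354 probes passed. COL3A1 had a log2 difference of -2.50 (standard error 0.50, limma adjusted p = 0.0544) and SPARC of -1.24 (standard error 0.25, adjusted p = 0.0544), both just past the threshold. In 5 unknown animals (29, 39, 52, 61 and 76) spike-in RNAs were dim, with means over the 7 brightest of 7.75 to 8.41, beside 12.07 to 12.43 in the positive animals. Without these 5 animals both genes were called, COL3A1 at -2.65 (limma adjusted p = 0.0391) and SPARC at -1.37 (adjusted p = 0.0359). With the slide as a random block SPARC was called (-1.39, adjusted p = 0.0334). With all 43 arrays in 1 fit, COL1A1, COL3A1, FN1, SPARC and SPON1 were called lower, with adjusted p of 0.0492, 0.0101, 0.0316, 0.0101 and 0.0252, and so were 484 of all probes, with 569 higher. COL3A1 and SPARC, 2 of 8 probes, were lower in the positive animals without overlap, beside 0.281% of all probes. COL1A1, COL1A2, FN1 and SPON1 had differences of -1.55, -1.32, -1.47 and -1.54 (adjusted p of 0.129, 0.136, 0.111 and 0.108), and DCN A_73_104758 had -1.06 (adjusted p = 0.198). DCN A_73_111861 was the 1 probe with a higher mean in the positive animals, by 0.84 (adjusted p = 0.156).

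The comparison in which slide, scan day and scanner were shared was that with animals 50, 78, 79 and 81, fitted with the slide as a term. On slide 9, COL1A1 was 10.32 (S56) and 8.92 (S57) against 11.56 (50) and 11.41 (81). On slide 10 it was 10.81 (S21) and 10.64 (S54) against 14.43 (78) and 12.08 (79). The positive animals were lower on both slides, by a mean difference of -1.86 and -2.53, and the fitted difference was -2.20 (standard error 0.52, 95% interval -3.39 to -1.01, limma adjusted p = 0.213).

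COL3A1 was 9.80 (S56) and 8.56 (S57) against 11.44 (50) and 11.66 (81) on slide 9. On slide 10 it was 10.90 (S21) and 10.45 (S54) against 12.62 (78) and 12.38 (79). The mean differences were -2.37 and -1.82, and the fit gave -2.10 (standard error 0.29, 95% interval -2.76 to -1.44, limma adjusted p = 0.14). All positive animals lay below all 4 unknown animals, by 4.28-fold in the fit, and whether the size differed between the slides was not tested.

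SPARC was 14.19 (S56) and 13.58 (S57) against 15.22 (50) and 15.20 (81), and 14.31 (S21) and 13.74 (S54) against 15.95 (78) and 15.24 (79). The fitted difference was -1.45 (standard error 0.23, limma adjusted p = 0.142). SPON1 was 4.22 (S56) and 4.05 (S57) against 5.27 (50) and 5.32 (81), and 4.44 (S21) and 4.78 (S54) against 6.11 (78) and 5.55 (79), with a fitted difference of -1.19 (standard error 0.17, adjusted p = 0.14) that ran from -1.41 to -0.16 over the alternatives tried. In each of these groups, 3 of 4 arrays had SPON1 well above background. For both genes all positive animals lay below all 4 unknown animals.

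COL1A2 was 9.17 (S56) and 8.82 (S57) against 10.26 (50) and 10.08 (81), and 9.68 (S21) and 9.72 (S54) against 12.61 (78) and 10.63 (79), with a fitted difference of -1.55 (standard error 0.40, limma adjusted p = 0.251). FN1 was lower in the positive animals within each slide, by -1.15 on slide 9 and -1.58 on slide 10, although S54 (10.28) lay just above animal 50 (10.27) of the other slide. DCN A_73_104758 was lower on slide 9 (-0.78) but overlapped on slide 10 (-0.62). DCN A_73_111861 was higher in the positive animals by 0.18 on slide 9, with overlap, and by 0.90 on slide 10, without.

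On the shared slides, 0 of the 8 probes were called higher or lower by limma, beside 0% and 0% of all tested probes, while 1872 of 16354 probes had an unadjusted p under 0.05. Of the 8 probes, 5 (COL1A1, COL1A2, COL3A1, SPARC and SPON1) were lower in all 4 positive animals than in all 4 unknown animals, beside 3.83% of all probes. The median log2 difference of the 8 probes was -1.40, and that of all tested probes was 0.02. Between 4 and 4 animals, a failed call does not show that levels were alike, and the intervals of 7 of the 8 probes lay below 0.

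**Figure D2:**
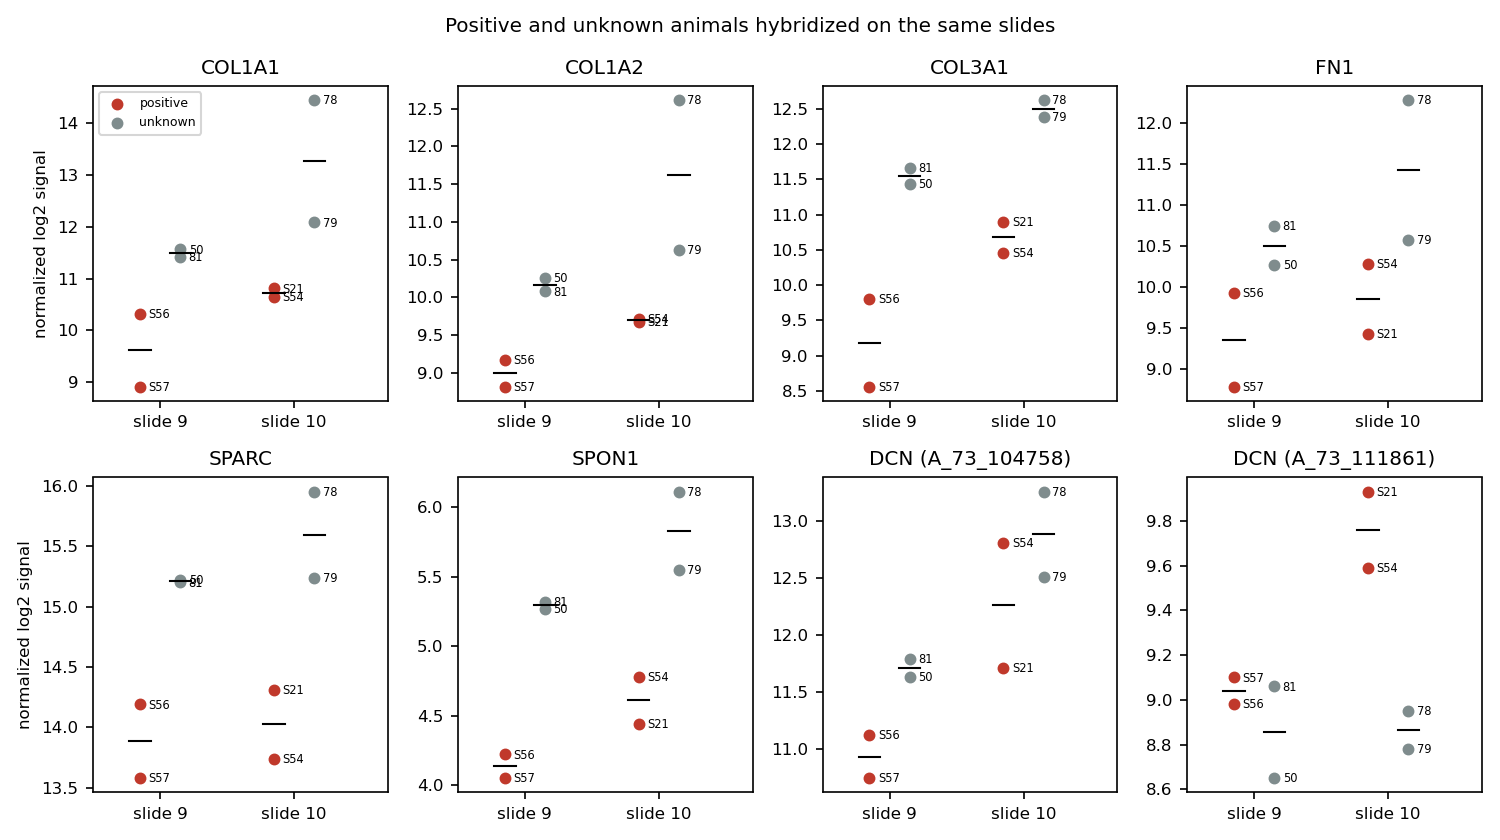
Normalized log2 signal of the 8 tested probes in the positive and the unknown animals that shared slide 9 or slide 10, with animal names and with bars at the mean of each pair. COL3A1, SPARC and SPON1 are lower in the positive animals on both slides, and animal 78 is the highest of the unknown animals for 7 of the 8 probes.

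**Figure D3:**
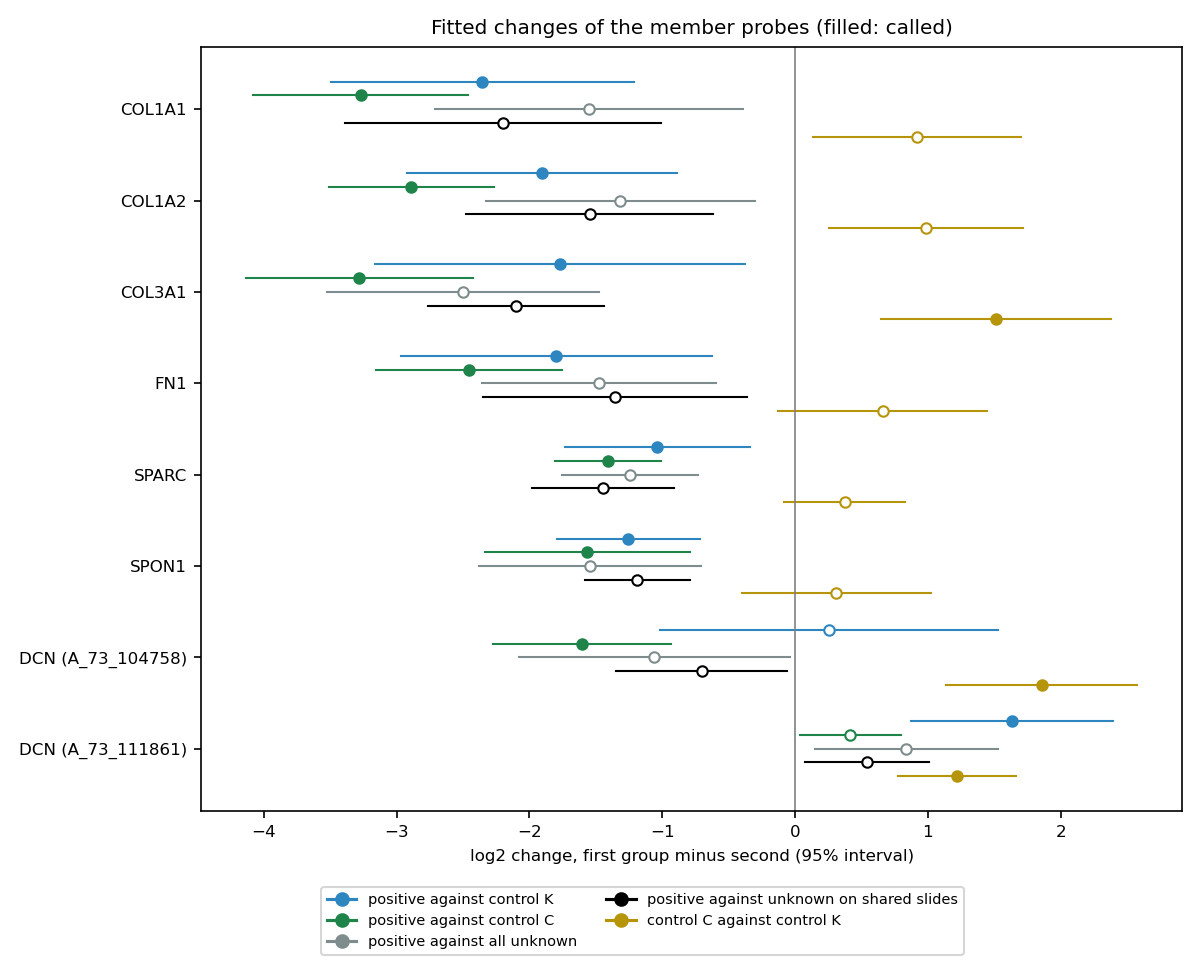
Fitted log2 change and its 95% interval for the 8 tested probes in the 5 comparisons, with filled points for called changes. COL1A1, COL1A2, COL3A1, FN1, SPARC and SPON1 lie left of 0 in all 4 comparisons of the positive animals, whereas DCN A_73_111861 lies right of 0.

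Within groups, the same animals were low or high for most of these genes. S57 was the lowest positive animal for 7 of the 8 probes, K8 was the highest of control K for 7 of 8, and animal 78 was the highest unknown animal on the shared slides for 7 of 8. The share of spots well above background was 89.4% for S57, the highest of the positive animals, 66.6% for K8 and 83.8% for animal 78; its part in these values was not tested.

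The genes also varied together after the group means were removed, over the 43 arrays, which share slides and one normalization. COL1A1 and COL1A2, which form 1 protein, had a Pearson's r of 0.92 (Spearman's rho 0.93). FN1 had 0.87 with DCN A_73_104758 and 0.82 with COL3A1. SPON1 was less tied to the rest, with r of 0.49 to 0.65 to all but the second DCN probe, and the probes of DCN had r of 0.57 with each other. Within control C alone, COL1A1 and SPARC had r of 0.91, and FN1 and SPON1 0.00, whereas in the unknown animals the same pairs had 0.70 and 0.72.

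**Figure D4:**
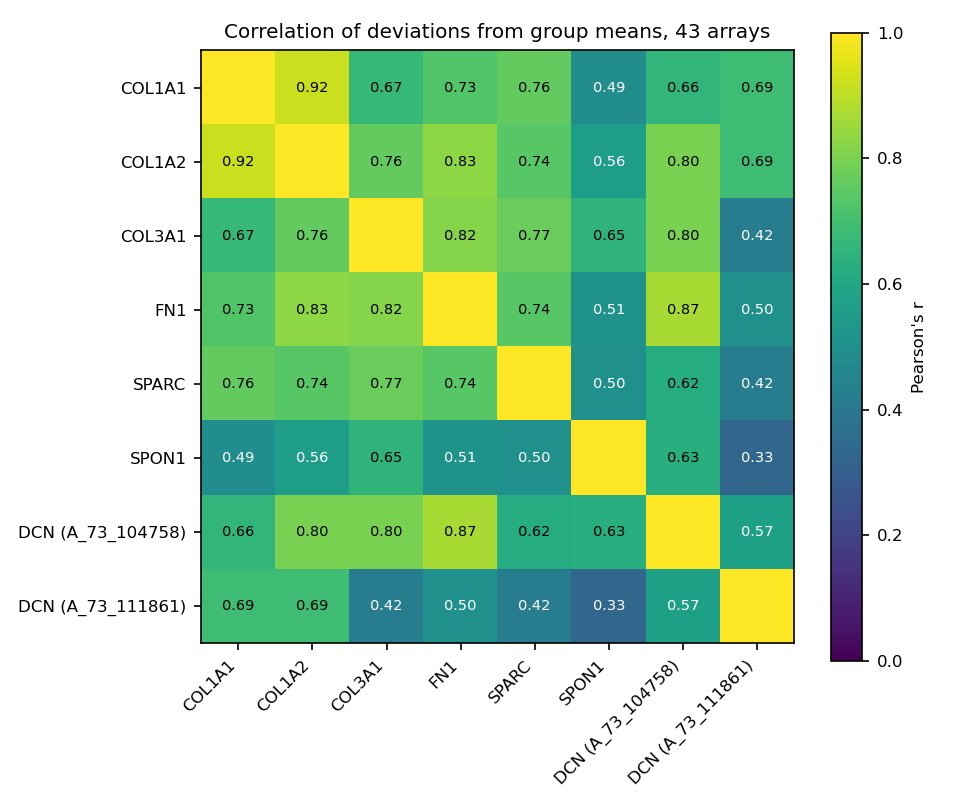
Pearson's r between the 8 tested probes over 43 arrays, computed on deviations from the 4 group means. The highest value is 0.92, between COL1A1 and COL1A2, and the lowest is 0.33, between SPON1 and DCN A_73_111861.

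Among all other named probes, those whose deviations were most like COL1A1 were COL1A2 (r = 0.917), the fibroblast surface protein THY1 (0.914) and QSOX1 (0.879), an oxidase that forms disulfide bonds. For COL1A2 they were COL1A1, THY1 (0.912) and the microfibril protein MFAP2 (0.912). The nearest to COL3A1 were GSN (0.919), an actin-severing protein, FSTL1 (0.869), a secreted glycoprotein, and IGFBP6 (0.851), which binds insulin-like growth factors. GSN (0.843) and FSTL1 (0.817) were nearest to SPARC as well, followed by the collagen uptake receptor MRC2 (0.814). FN1 was most like PCOLCE (0.882), an enhancer of procollagen cleavage, CCDC80 (0.875) and DCN (0.872). DCN A_73_104758 was most like MFAP5 (0.918), FGL2 (0.900) and the complement chain C1QA (0.880). The second DCN probe was most like EMP3 (0.887), a membrane protein. SPON1 had the weakest ties, to NT5E (0.735), SRPX (0.690) and TGFBR3 (0.688).

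Of 141 further matrix genes that were listed by function, 137 had a probe, and 137 of their 152 probes passed the filter. Of the tested probes, 2 were assigned by accession although their descriptions name another gene, those of DAG1 (A_73_100611) and LAMA5 (A_73_116385), and neither was called in any comparison. Against control K, 15 of these probes were called higher and 27 lower, beside 14.4% and 13.8% of all tested probes, and their median log2 change was -0.28. Against control C, 5 were called higher and 35 lower (median -0.33), beside 8.4% and 9.4%. The counts of each list below stand beside these same shares, and several, such as 3 of 20 or 3 of 23 higher against control K, are near them and are no result about the list. Against the unknown animals on the shared slides limma called 0, with 114 of 137 lower in mean and a median of -0.43. On those slides 23 of 137 probes (16.8%) were lower in the positive animals without overlap, beside 3.83% of all probes, and 2 were higher without overlap, MMP11 and ITGA7. In both directions together, 6.63% of all probes did not overlap, and the 2 higher ones are no result about the matrix genes.

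The remaining collagens leaned the same way as the main chains. Of 15 tested probes, 0 were called higher and 4 lower against control K, and 0 and 4 against control C. Called in both comparisons were COL12A1, which decorates type I fibrils (-2.50 and -2.39), and the basement membrane chain COL4A5 (-1.36 and -1.33). COL6A1 (-1.36) and COL18A1 (-1.09) were called lower against control K and had -0.54 and -0.54, not called, against control C. COL5A2 (-1.29), which co-assembles with type I collagen, and COL6A3 (-1.36) were called lower against control C and had -0.34 and -0.78, not called, against control K. On the shared slides 14 of the 15 were lower in mean and 8 without overlap, among them COL5A2 (-1.25), COL6A3 (-1.21) and COL4A2 (-1.29).

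Among 20 tested probes of genes that modify and crosslink collagen, 3 were called higher and 2 lower against control K, and 1 higher and 6 lower against control C. The lower ones included PCOLCE (-1.20 and -1.11) and the lysyl oxidase LOXL2 (-1.27 and -1.32), and on the shared slides these had differences of -1.02 and -1.66 without overlap. The crosslinking enzyme LOXL4 was 4.12-fold lower than in control C (limma adjusted p = 3.94e-05). In the opposite direction, ADAMTS14, which trims procollagen, was higher than in control K (2.28, adjusted p = 5.12e-04) and control C (2.40, adjusted p = 2.66e-07), and was well above background on 3 of 5 and 3 of 13 of their arrays. BMP1, which cleaves procollagen ends, was 8.39-fold higher than in control K, but control C was higher than control K as well (6.22-fold).

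Small leucine-rich proteoglycans, the family of DCN, had 0 called probes against control K and 5 of 8 called lower against control C: LUM (-2.03), KERA (-1.88), FMOD (-1.72), ASPN (-1.57) and OGN (-1.27). OGN was dim, well above background on 1 of 4 arrays of the positive animals and 5 of 13 of control C. Control C had 4 of these 8 probes called higher than control K and 1 lower, with LUM 5.93-fold higher. On the shared slides all 8 were lower in mean, with 1 (BGN, -0.95) without overlap.

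Of the other matrix glycoproteins, 3 of 23 probes were called higher and 7 lower against control K, and 0 and 6 against control C. THBS2, a thrombospondin that limits matrix breakdown and vessel growth, was 6.29-fold and 13.3-fold lower (limma adjusted p = 9.95e-05 and 2.89e-07), and was well above background in 3 of 4 positive animals. The cartilage proteoglycan ACAN was lower at A_73_102769 by log2 differences of -2.53 and -2.96. The result of its other probe, A_73_106119, is not given here. SPP1 (osteopontin) had -2.62 and -2.76. Both of these probes were well above background in 2 of 4 positive animals. SPP1 was not among the probes that were both called and well above background on all arrays of control C. MGP, an inhibitor of calcification, was 4.59-fold higher than in control K, and control C was 5.66-fold higher than control K. On the shared slides 22 of 23 probes were lower in mean.

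The elastic fibre list had 4 of 11 probes called higher and 1 lower against control K, and 1 and 4 against control C. LTBP2, a microfibril protein, was 11.3-fold higher than in control K (limma adjusted p = 1.01e-05) and 4.57-fold higher than in control C (adjusted p = 1.26e-04), while its difference on the shared slides was -0.23. The basement membrane list had 1 of 14 called higher and 3 lower against control K, and 0 and 1 against control C. LAMA3, a laminin chain, was among the lower in both (-1.47 and -2.10) and was well above background in 2 of 4 positive animals. HSPG2 (perlecan) was lower against control K (-1.51), with control C also below control K (-1.55). HSPG2 had the probes A_73_100060 and A_73_103251, and each of these values is that of 1 probe.

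Proteases and their inhibitors had 2 of 17 called higher and 4 lower against control K, and 1 and 4 against control C. Both probes of the gelatinase MMP2 were lower than in control C (-1.35 and -1.24) and, on the shared slides, lower without overlap (-1.27 and -1.46). MMP11 was 2.03-fold higher than in control C. Receptors had 2 of 15 higher and 5 lower against control K, and 1 and 5 against control C. The heparan sulfate proteoglycan SDC2 was 6.12-fold lower than in control K (adjusted p = 4.12e-06). The collagen receptor ITGA1 was not well above background on any control array and was at least 3.28-fold higher than in control K and at least 2.61-fold higher than in control C (adjusted p = 7.27e-06 and 0.00129), a bound from the lowest signal well above background on each array. TGF-beta signalling had 0 of 14 higher and 1 lower (SMAD7, -1.14, by 1 of its probes) against control K. Against control C it had 1 higher (the ligand TGFB3, 1.25, at A_73_102656, whereas its other probe had -0.37) and 0 lower.

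Between control C and control K, 22 of the 137 matrix probes were called higher and 8 lower, beside 10.9% and 9.69% of all probes. Besides those already named, the higher ones included the hyaluronan receptor CD44, at least 7.72-fold and not well above background on any array of control K, and the prolyl hydroxylase chain P4HA3 (5.98-fold, well above background on 2 of 5 arrays of control K). The lower ones included MMP11 (2.97-fold), COL11A2 (2.72-fold, well above background on 6 of 13 arrays of control C) and the keratan sulfate proteoglycan OMD (2.34-fold).

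**Figure D5:**
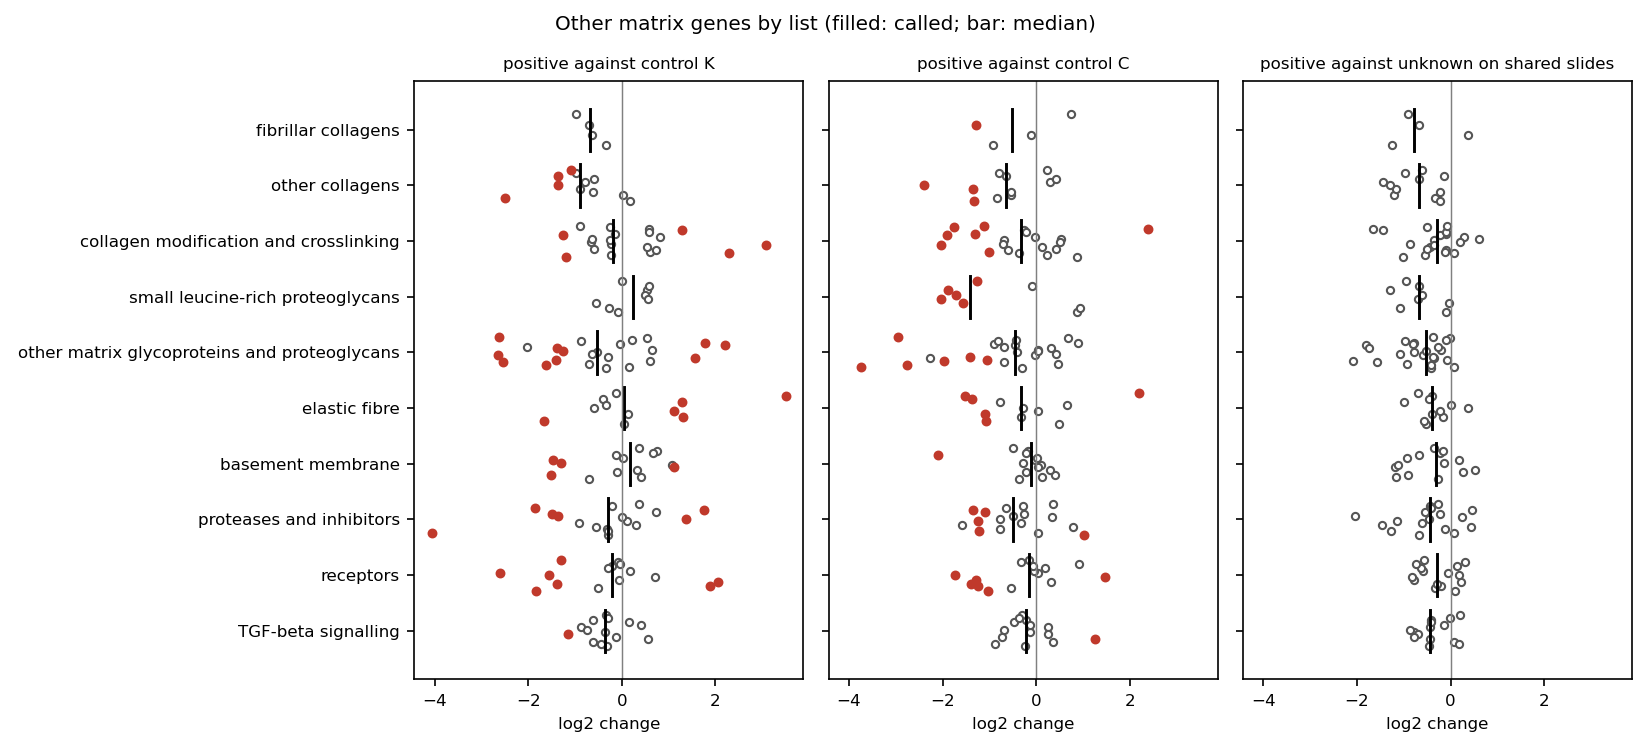
Fitted log2 changes of 137 probes of other matrix genes by list, for the positive animals against control K, against control C and against the unknown animals on the shared slides; filled points are called and bars are medians. All 10 medians lie below 0 on the shared slides, where no probe was called.

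In whole muscle, fewer cells of a type and less RNA per cell cannot be told apart, so that cell type markers are given here beside the collagens. Of 7 tested fibroblast marker probes, 0 were called higher and 3 lower against control K (S100A4, THY1 and VIM), and 0 and 3 against control C (S100A4, THY1 and FAP). The summed signal of this list, led by VIM, was 12.86 to 13.30 on the log2 scale in the positive animals, 13.50 to 15.07 in control K, 13.90 to 15.07 in control C and 13.53 to 14.70 in the unknown animals on the shared slides. In all 21 unknown animals it was 13.01 to 15.76, which overlapped the positive animals. On those slides all 7 were lower in mean, with a median of -0.73. Of 5 tested tendon marker probes, TNMD was called lower against control K (-5.34) and control C (-6.01), and FMOD against control C. The tendon regulators SCX and MKX did not pass the filter on dim signals. The summed tendon signal, led by THBS4, spanned 12.42 to 14.19 in the positive animals, 13.54 to 16.22 in control K and 12.26 to 15.44 in control C.

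Markers of other cell types are given beside the same shares of all probes, 14.4% higher and 13.8% lower against control K and 8.4% and 9.4% against control C. Of 7 adipocyte probes, 5 were called higher against control K and 1 against control C, led by LPL in signal. LEP did not pass the filter. The summed signal spanned 13.50 to 14 in the positive animals, 11.55 to 12.43 in control K and 12.40 to 13.94 in control C. Of 7 endothelial probes, led by VWF, 4 and 3 were called higher, with sums of 13.06 to 13.94 in the positive animals against 11.77 to 12.77 and 11.30 to 12.70. On the shared slides the median differences of the marker lists were -0.06 for adipocyte, -0.22 for endothelial, -0.63 for leukocyte and -1.29 for tendon probes, with no probe called. Of the 7 leukocyte probes, 2 were higher and 5 lower in mean there. Among the lower, CD163, a macrophage receptor, had -2.18, and the leukocyte antigens PTPRC (-1.15) and CD3E (-1.18) were lower without overlap. The summed leukocyte signal spanned 9.95 to 10.22 in the positive animals and 10.38 to 12.55 in the unknown animals on these slides, and the tendon sum of those unknown animals was 13.22 to 15.81. Of 11 muscle fibre probes, led by MB, 2 were called higher and 4 lower against control K and 0 and 3 against control C. By mean, 5 were higher and 6 lower against control K, 6 and 5 against control C, and 4 and 7 on the shared slides. Their summed signal spanned 20.07 to 20.41 in the positive animals, 19.46 to 20.26 in control K and 20.27 to 20.64 in control C. Both probes of the fast myosin MYH1 were among those called lower (-4.25 and -7.32, then -5.88 and -7.79). On the shared slides they had -3.47 and -3.67, not called. Of 5 smooth muscle probes, 1 was called higher against control K (ACTA2) and 1 against control C (MYH11). DES, which led this list in signal, is in the muscle fibre list as well. Of 7 leukocyte probes, led by CD163, 2 were called higher against control K, and 1 higher and 1 lower against control C. HBB, the 1 red blood cell probe that passed, was higher than in control K (1.0) and level with control C (0.02). The part of these cell types in the collagen values was not tested.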

How the data were processed

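For each of 43 arrays the authors deposited scanner output with spot intensity (gProcessedSignal), which their Feature Extraction software had background-subtracted. The deposited series matrix holds intensity values of the same arrays (correlation with the scanner values on the log2 scale at least 0.9956), with scale and centring unstated, and was used as an alternative. Here, intensities were log2-transformed and normalized by cyclic loess (limma 3.58.1, R 4.3.3; span 0.7, 3 iterations), as in the study's methods. Spots flagged as outliers were left out and the spots of a probe were averaged. Probes with a log2 signal under 4 on at least 30 arrays were removed, 5121 in all. Groups were compared by lmFit and eBayes, two-sided. A probe was well above background on an array where at least 0.5 of its spots were. The matrix genes named were called probes, at most 5 per direction by size and well above background on all arrays of the brighter group; members and genes discussed as parts of a list are named besides. The result of 1 gene that the rule named is not reported here. Genes and lists were chosen with earlier results of these data known. Of 21475 probes, 13511 were named through RefSeq. Animals were the replicates, so that p-values measure the spread between these animals. Outside the shared-slide comparison the main fits had no slide term and took the arrays as independent. Arrays of 1 slide had a correlation of 0.341 in the comparison with control K, 0.0935 with control C, 0.122 between the controls and 0.575 with all unknown animals. Simulated arrays, with independent noise and no slide differences, checked that the fits return the direction of known changes. They cannot show how slide differences affect the p-values. The number of arrays limits the precision.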

Additional observations from a re-analysis of the deposited data

Results flagged for a closer look

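In 24 groups of 4 or 5 animals (8 probes in the positive animals, control K and the unknown animals on the shared slides), 1 value stood far from the others. The SPARC signal of animal 78 was 15.95, whereas the other unknown animals on the shared slides had 15.20 to 15.24. The gap took 0.948 of the range, beside a limit of 0.829 for 4 animals. Chance passes such a limit in about 1 of 20 groups. Without animal 78 the fitted SPARC difference on the shared slides was -1.28 (limma adjusted p = 0.228), beside -1.45 with it.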

How the results depend on the processing

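Of the values for the 8 probes under alternative settings, 123 of 144 against control K kept their direction and side of the threshold, 101 of 104 against control C, 103 of 112 between the controls and 96 of 119 against all unknown animals. On the shared slides no setting called any of the 8 probes, which says nothing of stability at 4 against 4 animals. All 8 kept their direction there, with COL3A1 from -2.45 to -1.80 and SPON1 from -1.41 to -0.16. Direction turned in 3: DCN A_73_104758 against control K without S54 (-0.15; 0.62 without K8), DCN A_73_111861 against control C under loess between every pair of arrays (-0.35) and SPON1 between the controls under 75th percentile scaling (-0.05). Against control K, the SPARC call was lost under 75th percentile scaling (-0.72), quantile normalization (-0.89) and slide as a random block (-0.97), and those of COL3A1 and FN1 under the slide block with differences of nearly the same size (-1.72, adjusted p = 0.0903, and -1.72, adjusted p = 0.0524). Calls against control K also ended for COL3A1 under loess on every pair (-1.51) and normexp (-1.42), for SPON1 under 75th percentile scaling (-0.95) and normexp (-0.23), for SPARC under normexp and for DCN A_73_111861 under loess on every pair (0.85). Against control C, SPON1 was not called under 75th percentile scaling (-0.90) or normexp (-0.31). Without K8, COL1A1 (1.25), COL1A2 (1.36) and FN1 (1.09) were called higher in control C than in control K, as were COL1A1 and COL1A2 without K7 (1.06 each) and COL1A2 with the slide block (1.02) and loess on every pair (1.06), and DCN A_73_111861 was not called under normexp (0.97). Against all unknown animals, SPON1 was also called under quantile normalization (-2.55), loess on every pair (-3.24), no filter and the fit of all 43 arrays (both -1.54), FN1 under no filter, the filter on background and that fit (-1.47 in each), COL1A1 in that fit (-1.55), COL3A1 under 7 settings and SPARC under 8.

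The counts of matrix probes moved more, and so did those of all probes. Under cyclic loess on every pair, 52 were lower against control K, 11 higher and 56 lower against control C, and 7 lower against all unknown animals, while all probes called lower went from 2250 to 4375, from 1538 to 4168 and from 8 to 100. Under normexp, 7 were higher and 14 lower against control K, 1 higher and 12 lower against control C, and 10 higher and 4 lower between the controls, while all probes fell to 803 and 559, 229 and 234, and 828 and 563. Under 75th percentile scaling 14 were higher against control C, beside 2916 of all probes. Against all unknown animals 10 were lower without a filter (all probes 1007 higher and 383 lower), 9 with a filter that asked for signal above background (1004 and 105), and 2 higher and 14 lower with all 43 arrays in 1 fit (569 and 484). Leaving out 1 animal gave 3 to 5 higher against control C, the lowest without S54. The cause was not tested. Scaling moved the median of all probes by over 0.1 in part: 75th percentile scaling gave 0.11, 0.20 and -0.12 (against control K, against control C, between the controls), loess on every pair -0.26 and -0.28 against control K and control C, and quantile normalization -0.13 against control K. Against all unknown animals 75th percentile scaling gave 0.08 and loess on every pair -0.19, from -0.05, and on the shared slides loess on every pair gave -0.12 and quantile normalization 0.12, from 0.02. No paired analysis was possible because the labels give no replicate numbers shared between groups; on the shared slides the slide was a term of the fit. The number of arrays, and signal close to background for SPON1, limit the precision.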
